A study of Mus musculus with 12 samples.

Results

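The alpha defensins and 6 other secreted products of Paneth cells were followed in the ileum of TNFdARE mice and of WT littermates. The set was taken from the deposited count table as every gene or pseudogene whose symbol starts with Defa, together with Itln1, Ang4, Mptx1, Mptx2, Pla2g2a and Spink4. It held 45 of the 46603 genes of the table: 22 alpha defensin genes, 17 alpha defensin pseudogenes and the 6 other products. TNFdARE mice lack the AU-rich element of the Tnf transcript, which normally limits its stability and translation, and they are used as a model of Crohn's-like ileitis with arthritis. The study sequenced RNA from 4 groups of 3 biological replicates each: TNFdARE ileum, WT ileum, TNFdARE synovium and WT synovium. The comparison below is TNFdARE ileum against WT ileum, and synovium is used only to check tissue. The labels give no age, sex, background strain or number of Tnf alleles changed. The deletion is carried in the germline, so all cell types of the sampled tissue have it. Ileum libraries held 14267834 to 15700665 counts. With 3 biological replicates a group, a p-value sets the difference between the groups against the spread between replicates.

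Paneth cells sit at the base of small intestinal crypts beside the stem cells. They store antimicrobial peptides in granules and release them into the crypt lumen. Alpha defensins, called cryptdins in the mouse, are made as precursors that matrilysin, the protease encoded by Mmp7, cleaves to the active peptide. The other members of the set are also granule or secretory products: Itln1 encodes intelectin-1, a lectin that binds microbial sugars, Ang4 a microbicidal ribonuclease, Mptx1 and Mptx2 pentraxins, Pla2g2a a secreted phospholipase A2 that attacks bacterial membranes, and Spink4 a Kazal-type protease inhibitor also made by goblet cells. In bulk RNA, fewer Paneth cells and less RNA per Paneth cell cannot be told apart.

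The alpha defensins lie close together in the genome and resemble each other, which bears on how their reads are counted. On GRCm38, 35 of the 39 alpha defensin members lie on chromosome 8 between 21025545 and 21750000, and the other 4, all pseudogenes, lie before that cluster on the same chromosome. The coding sequences of Defa21 and Defa22 matched at 277 of 279 bases (99.3%), those of Defa24 and Defa30 at 275 of 279 (98.6%), and those of Defa21 and Defa24 at 80.6%. The last 120 coding bases, which hold the sequence of the mature peptide, are shown for the 4 most abundant genes and for a pair that is identical in this stretch (coding bases 160 to 279, read from the GENCODE annotation of GRCm38; capitals mark bases that differ from the first gene of each pair).
Defa24: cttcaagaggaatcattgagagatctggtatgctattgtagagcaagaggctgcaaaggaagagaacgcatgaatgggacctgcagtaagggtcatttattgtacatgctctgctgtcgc
Defa30: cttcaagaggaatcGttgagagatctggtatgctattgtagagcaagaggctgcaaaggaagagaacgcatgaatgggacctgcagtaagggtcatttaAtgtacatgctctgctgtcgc
Defa22: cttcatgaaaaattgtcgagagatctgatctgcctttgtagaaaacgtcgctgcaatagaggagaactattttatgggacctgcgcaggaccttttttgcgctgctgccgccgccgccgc
Defa21: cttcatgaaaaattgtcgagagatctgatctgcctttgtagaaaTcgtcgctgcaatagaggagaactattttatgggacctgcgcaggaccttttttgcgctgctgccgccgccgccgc
Defa5: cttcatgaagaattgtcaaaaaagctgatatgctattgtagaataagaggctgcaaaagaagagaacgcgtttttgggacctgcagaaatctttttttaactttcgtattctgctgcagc
Defa34: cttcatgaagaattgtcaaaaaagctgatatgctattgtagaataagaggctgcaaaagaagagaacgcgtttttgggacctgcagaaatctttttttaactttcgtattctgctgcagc
Defa30 differed from Defa24 at 2 of these bases and Defa21 from Defa22 at 1, while Defa5 and Defa34 had the same 120 bases. A read that falls wholly within a shared stretch cannot be assigned to 1 of the genes by its sequence.

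The promoters of several members also resembled each other. RefSeq (GRCm38.p6) promoters of 300 bases, from 250 bases before to 50 after the annotated start, were matched for 16 genes with a Defa symbol, including Defa38, Defa41, Defa42 and Defa43, which GENCODE lists under other names. The promoters of Defa21 and Defa22 were identical over all 300 bases. So were those of Defa2 and Defa20, of Defa23 and Defa31, of Defa36 and Defa37, and of Defa42 and Defa43. The promoters of Defa22 and Defa30 are printed as abundant members, and that of Ang4 as a Paneth product from another family; capitals mark CTTTGAT, which reads ATCAAAG on the other strand, and TATAAA. The first promoter is at chr8:21162027-21162326 on the plus strand, the second at chr8:21134400-21134699 on the plus strand and the third at chr14:51773541-51773840 on the minus strand.
Defa22: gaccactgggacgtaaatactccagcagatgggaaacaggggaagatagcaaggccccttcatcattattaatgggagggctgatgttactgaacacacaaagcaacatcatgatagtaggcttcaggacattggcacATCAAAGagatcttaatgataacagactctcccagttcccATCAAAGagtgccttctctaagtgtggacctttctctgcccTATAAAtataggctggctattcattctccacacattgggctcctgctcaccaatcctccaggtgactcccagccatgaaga
Defa30: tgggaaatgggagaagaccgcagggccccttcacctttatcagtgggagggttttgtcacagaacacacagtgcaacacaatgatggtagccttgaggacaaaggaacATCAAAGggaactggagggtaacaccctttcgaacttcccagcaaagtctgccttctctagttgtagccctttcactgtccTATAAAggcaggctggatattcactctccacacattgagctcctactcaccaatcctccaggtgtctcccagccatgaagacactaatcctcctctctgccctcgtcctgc
Ang4: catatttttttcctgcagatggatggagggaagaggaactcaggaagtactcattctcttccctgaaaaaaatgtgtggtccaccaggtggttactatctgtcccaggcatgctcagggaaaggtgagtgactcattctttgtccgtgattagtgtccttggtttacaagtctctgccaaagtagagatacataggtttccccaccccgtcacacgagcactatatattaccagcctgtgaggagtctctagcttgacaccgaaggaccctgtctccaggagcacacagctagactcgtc
CTTTGAT, searched on both strands as a core of sites bound by TCF/LEF factors, which act in Wnt signalling, occurred in 13 of the 16 Defa promoters, against 1225 of all 32851 promoters searched (3.7%). Because several of the 16 are identical copies, they are not independent of each other. CTTTGAT was absent from the promoters of Defa38, Defa42 and Defa43, and from those of Ang4, Itln1, Mptx1 and Mptx2. Genes with it include Defa23 and Defa37, which had 0 counts in the ileum. Their coding sequences are identical to those of Defa31 and Defa36, so a count of 0 does not show that they are silent. TATAAA occurred in 15 of 16, against 13.6% of all promoters. The letters CAGCTG were found in 1 of 16 (16.3% of all promoters), AAATCA in 0 of 16 (14%) and TTTATG in 0 of 16 (11.9%). The marked letters of Defa22 lie at -112 and -72 for CTTTGAT and at -31 for TATAAA, counted from the annotated first base, and those of Defa30 at -142 and -61. A match of letters is a description of the sequence and was not tested for binding.

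In the ileum, the alpha defensins were abundant, and their summed level was lower in all 3 TNFdARE libraries than in any WT library. Alpha defensin genes and pseudogenes together took 0.08%, 0.603% and 0.364% of the counts in TNFdARE libraries 1, 2 and 3, against 0.946%, 0.634% and 1.18% in WT libraries 1, 2 and 3. On the scale of CPM, which divides each count by the library size after TMM scaling,, the sums were 762, 5862 and 3509 in TNFdARE, against 9883, 6517 and 12329 in WT. The mean was 3378 ± 2552 CPM in TNFdARE and 9576 ± 2918 CPM in WT (SD, n = 3 each), so that the WT mean was 2.84-fold the TNFdARE mean. The lowest WT library, replicate 2, stood little above the highest TNFdARE library, also replicate 2, and TNFdARE replicate 1 stood far below all others. The 6 other products summed to 393, 2147 and 1294 CPM in TNFdARE, against 3272, 2378 and 3709 CPM in WT, a log2 ratio of the means of -1.29.

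**Figure D1:**
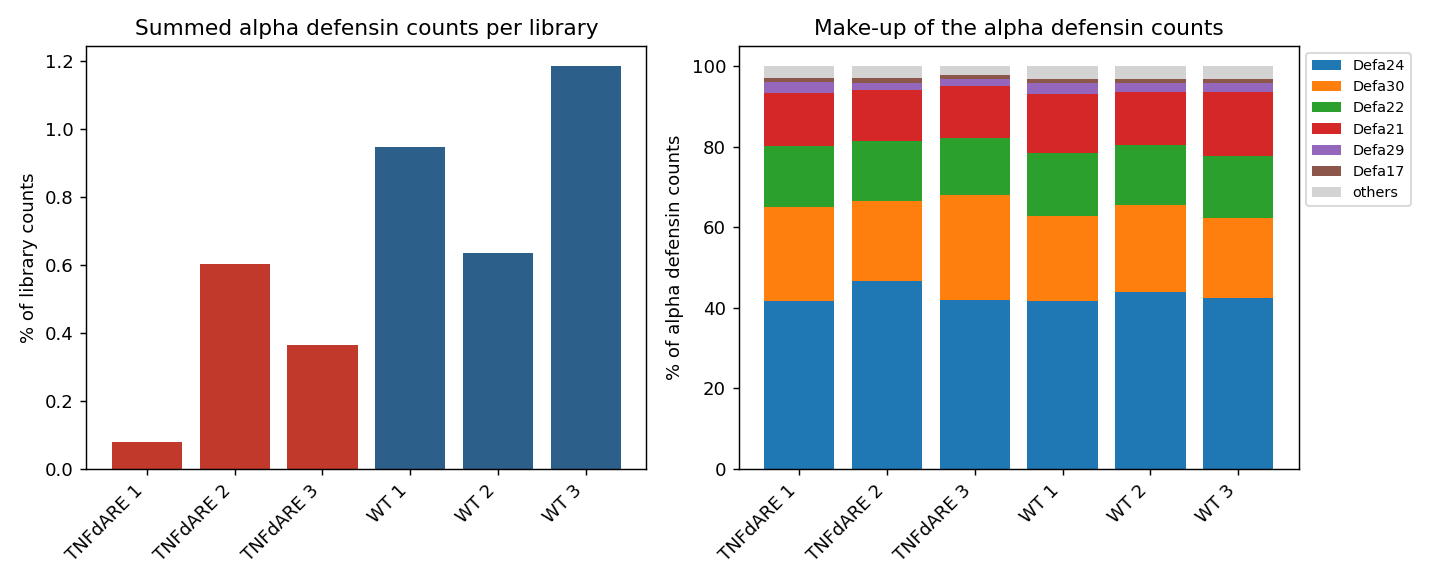
Left, summed counts of 39 alpha defensin genes and pseudogenes as a percentage of all counts in each ileum library (bars start at 0; TNFdARE red, WT blue). Right, the percentage of those counts that each of the 6 most abundant members took in the same libraries; Defa24 took 41.7% to 46.6% in TNFdARE and 41.8% to 44.1% in WT.

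The genes were next tested one by one in the fit over all 15462 genes (edgeR's quasi-likelihood test with Benjamini-Hochberg adjustment, threshold 0.05), in which 22 of the 45 members passed the filter on low counts and 23 did not. The filter can pass a gene that is well counted in 1 group only; 17 of the 22 had at least 10 counts in every ileum library. 0 of the 22 members passed the threshold, where 5.68% of all genes tested did (1.57% lower in TNFdARE and 4.12% higher); 10 had an unadjusted p under 0.05 with a lower level in TNFdARE, against 13.5% of all genes tested. All 22 had a negative log2 fold change, from -2.32 to -0.62 with a median of -1.62, where 50.3% of all genes tested were negative and their median was -0.002; 21 lay under -1, against 2.27% of all genes tested. In 18 of the 22, every TNFdARE library lay below every WT library, against 18.1% of all genes tested; the 4 that overlapped were Mptx2, Defa3, Defa-ps6 and Defa-ps18. The adjusted p of the 22 ran from 0.0704 to 0.317. The call depended on the tool and on a library: DESeq2 called 6 of the 22 (6.69% of all genes lower), a model of all 12 libraries called 2 (5.28%), and edgeR without TNFdARE replicate 2 called 6 (12.8%); none of the other alternatives run called any member.

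**Figure D2:**
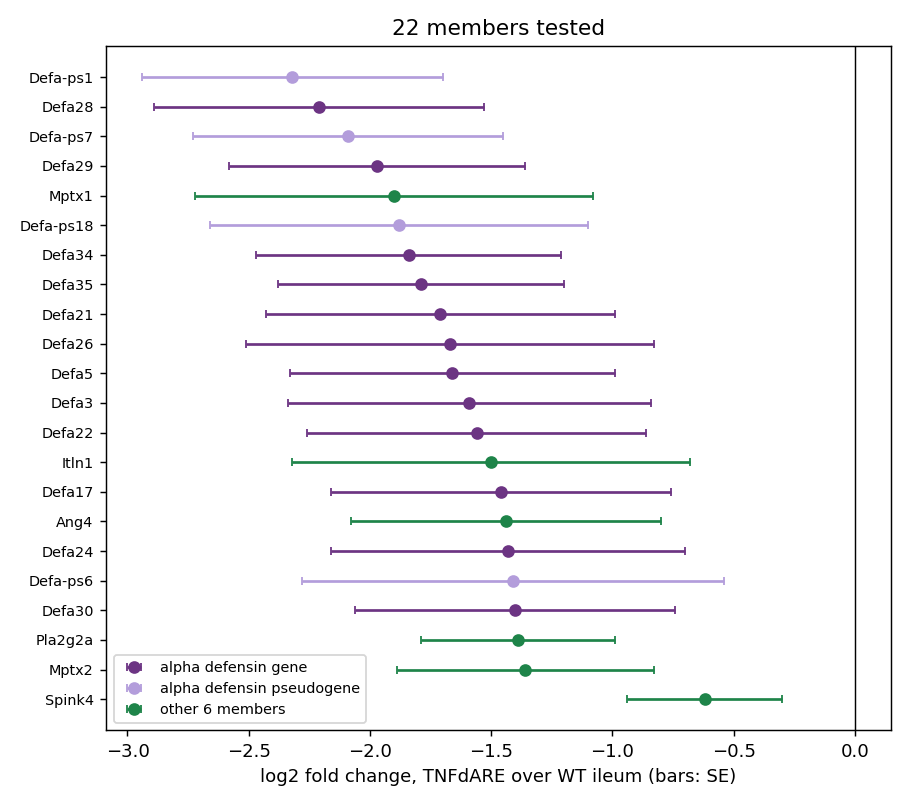
Log2 fold change of TNFdARE over WT ileum for the 22 members tested, with a standard error worked back from the quasi-likelihood F statistic as bars. Every point lies below 0, from -2.32 for Defa-ps1 to -0.62 for Spink4; no member passed the adjusted threshold.

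Defa24 had the highest level of the set (chromosome 8, 21734494 to 21735471, plus strand). It had 318, 2731 and 1476 CPM in TNFdARE, against 4132, 2872 and 5219 CPM in WT. The groups did not overlap, although TNFdARE replicate 2 lay close to WT replicate 2. The log2 fold change was -1.43 ± 0.73 (edgeR, SE; adjusted p = 0.24). Defa30, on the same strand from 21134642 to 21135598, had 178, 1169.6 and 909 CPM in TNFdARE, against 2083, 1397 and 2469.9 CPM in WT, with the same order of libraries within each group. Its log2 fold change was -1.40 ± 0.66 (adjusted p = 0.214). 0% of the 100-base windows of Defa24 transcripts and 0.3% of those of Defa30 occur in another gene. This measure counts exact matches only, and the coding sequences of the pair differ at few bases, so how well their reads were told apart was not tested.

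Defa22 and Defa21 followed, with Defa22 at 115, 875 and 498 CPM in TNFdARE, against 1529, 977 and 1885 CPM in WT. Defa21 had 101, 744 and 453 CPM in TNFdARE, against 1448, 855 and 1952 CPM in WT. Both had groups that did not overlap. Their log2 fold changes were -1.56 ± 0.70 (adjusted p = 0.197) and -1.71 ± 0.72 (adjusted p = 0.173). Exact matches to another gene cover 40.3% and 40.4% of their windows. These shares do not bound the uncertainty, because the coding sequences of the pair matched at 277 of 279 bases. How well reads of the pair were told apart was not tested. Per kilobase of transcript, Defa24 averaged 3600 CPM in TNFdARE and 9724 CPM in WT, Defa30 1890 and 4983, Defa22 1183 and 3492, and Defa21 1035 and 3392, so that Defa24 led in both genotypes.

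The next genes were less abundant. Defa29, whose windows were 11% shared, had 19.7, 98.8 and 61.8 CPM in TNFdARE, against 268, 140.4 and 298 CPM in WT, with no overlap between the groups. Its log2 fold change was -1.97 ± 0.61 (adjusted p = 0.0973). Defa26, with 1.1% of its windows shared, had 2.33, 35.8 and 12.8 CPM in TNFdARE, against 59.8, 39 and 63.1 CPM in WT (log2 fold change -1.67 ± 0.84, adjusted p = 0.235). Defa35 had 1.23, 7.24 and 5.68 CPM in TNFdARE, against 17.3, 11.7 and 19.9 CPM in WT (-1.79 ± 0.59, adjusted p = 0.112). The groups did not overlap for either gene. Exact windows understate resemblance here too. The coding sequence of Defa29 was 97.4% identical to that of Gm14851, and that of Defa26 97.8% to that of Gm15292 (Defa40 in RefSeq).

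Defa17, Defa34, Defa5 and Defa3 are the tested members with the most shared sequence, from 75.0% to 90.6% of their windows, and their single values are uncertain. Defa17 had 8.58, 70.3 and 32.7 CPM in TNFdARE, against 110.5, 71.8 and 125 CPM in WT. Defa34 had 7.60, 45.4 and 24.3 CPM in TNFdARE, against 109, 58.1 and 109 CPM in WT. Defa5 had 8.03, 50.8 and 21.4 CPM in TNFdARE, against 65.5, 64.0 and 124 CPM in WT. These 3 genes did not overlap between the groups. Defa3 had 0.981, 9.81 and 5.82 CPM in TNFdARE, against 16.7, 9.53 and 23.7 CPM in WT, and TNFdARE replicate 2 lay above WT replicate 2. The log2 fold changes of the 4 ran from -1.46 to -1.84 (adjusted p from 0.12 to 0.216). Defa28 was near the lower end of what was counted, with 3, 17 and 2 counts in TNFdARE, against 42, 27 and 31 counts in WT.

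**Figure D3:**
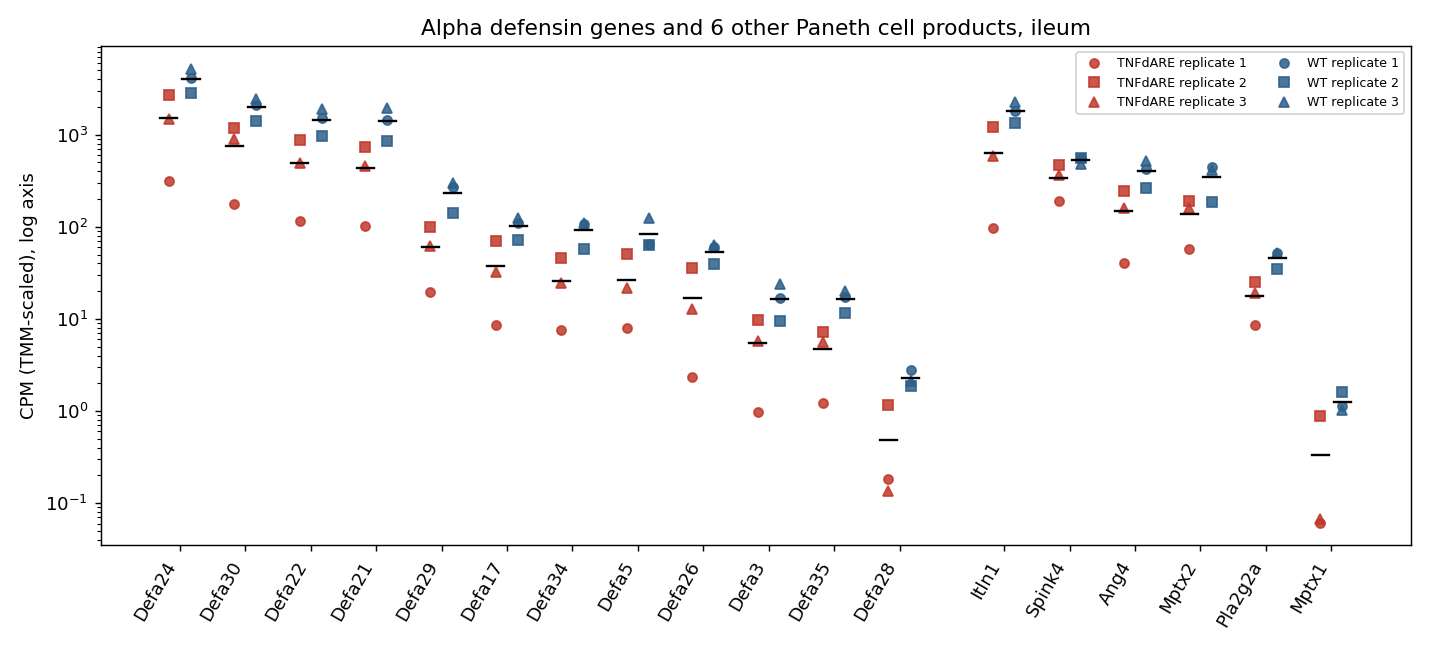
CPM on a log axis of 12 alpha defensin genes (left block) and 6 other Paneth cell products (right block) in each ileum library, TNFdARE in red at the left of each pair and WT in blue; marker shape gives the replicate and the line the mean. The TNFdARE circle, replicate 1, is the lowest of all 6 libraries in 17 of the 18 genes drawn; in Defa28 replicate 3 is lower.

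A pseudogene is a gene copy annotated as giving no functional product, but its reads can be counted. Of the 17 alpha defensin pseudogenes, 8 had 0 counts over the ileum and 4 were tested. Defa-ps6 was the most abundant, with 0.919, 17.7 and 6.36 CPM in TNFdARE, against 26.5, 14.8 and 25 CPM in WT, and its groups overlapped. Defa-ps1 had the lowest adjusted p of the set, 0.0704, with 0.184, 1.02 and 0.541 CPM in TNFdARE, against 4.13, 1.40 and 3.11 CPM in WT. With 3 counts taken as the most that a zero can hide, the detection limit of an ileum library lay between 0.191 and 0.21 CPM before TMM. The lowest of these values, 3 counts of Defa-ps1 in TNFdARE replicate 1, stands at that limit.

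Several alpha defensin genes had few or no counts. Of 22 alpha defensin genes, 11 shared at least 85% of their 100-base windows with another gene, and 8 of these (Defa2, Defa20, Defa23, Defa31, Defa32, Defa33, Defa36 and Defa37) had fewer than 20 counts over the 6 ileum libraries. Pairs among them had identical coding sequences: Defa2 and Defa33, Defa20 and Defa32, Defa23 and Defa31, and Defa36 and Defa37. Over genes and pseudogenes together, 9 of the 12 members with at least 85% shared windows had fewer than 20 counts, and so had 12 of the 27 members below that share. How the authors counted reads that match several genes is not given in the sources used here, and the part of sharing in these low counts was not tested. A count near 0 for such a gene therefore does not show that it is silent.

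**Figure D4:**
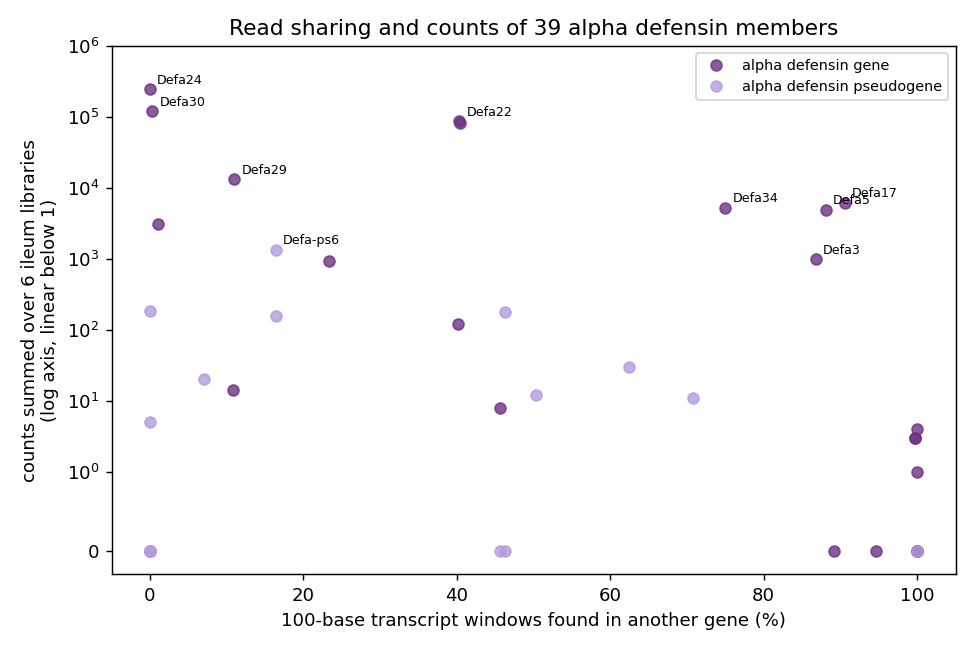
Percentage of 100-base transcript windows that also occur in another gene (x axis) against counts summed over 6 ileum libraries (y axis, log scale, linear below 1) for 39 alpha defensin genes (dark) and pseudogenes (light). Defa24 and Defa30 share almost no exact windows and have the highest counts, while 8 genes at the right edge have fewer than 20.

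The make-up of the alpha defensin counts differed far less between libraries than their sum. Defa24 took 41.7%, 46.6% and 42.1% of the alpha defensin counts in TNFdARE, against 41.8%, 44.1% and 42.3% in WT. Defa30 took 23.4%, 19.95% and 25.9% in TNFdARE, against 21.1%, 21.4% and 20.03% in WT. Together with Defa22 and Defa21 they made up 93.4%, 94.2% and 95.1% in TNFdARE, against 93.0%, 93.6% and 93.5% in WT. These shares are of the 39 members only and would be smaller with the genes that carry a Defa symbol only in RefSeq. Those further genes summed to 74.5, 628 and 322 CPM in TNFdARE, against 1250, 741 and 1458 CPM in WT. Shares of all 16 tested alpha defensins overlapped between the groups; no test of the shares was made.

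Within TNFdARE the libraries lay far apart. Relative to the WT mean of each gene, the median over the 16 tested alpha defensins was 7.66% in TNFdARE replicate 1 (3.83% to 9.50%), 59.0% in replicate 2 (35.3% to 80.3%) and 27.7% in replicate 3 (5.98% to 45.8%). The same order of libraries, replicate 1 below 3 below 2, held in 21 of the 22 members tested, Defa28 being the exception. This order was not particular to the members: Epcam, Muc2, Olfm4, Anpep and Mttp had it too, while Xbp1 and Krt20 did not. Its share over all genes tested was not counted. In WT, replicate 2 was the lowest library for all 16 tested alpha defensins, and the share of all genes with this trait was not counted either. Tnf, the gene altered in these mice, had 79.9, 16.5 and 45.6 CPM in TNFdARE, against 2.53, 1.33 and 1.55 CPM in WT (log2 fold change 4.70 ± 0.68, edgeR adjusted p = 0.0404), which is the opposite order of the TNFdARE libraries. The relation between the 2 orders rests on 3 libraries and was not tested.

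Itln1 was the most abundant of the 6 other products (chromosome 1, 171518122 to 171535294, minus strand). It had 96.7, 1209 and 588 CPM in TNFdARE, against 1789, 1339 and 2244 CPM in WT, and the groups did not overlap. Its log2 fold change was -1.50 ± 0.82 (edgeR adjusted p = 0.266). Ang4 had 40.6, 244 and 161 CPM in TNFdARE, against 425, 262 and 521 CPM in WT, also without overlap (-1.44 ± 0.64, adjusted p = 0.192). In both, TNFdARE replicate 1 was the lowest and replicate 2 the highest TNFdARE library, as for most alpha defensins.

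The pentraxins Mptx2 and Mptx1 differed in level. Mptx2 had 57.2, 193 and 161 CPM in TNFdARE, against 452, 186 and 415 CPM in WT, so TNFdARE replicate 2 lay above WT replicate 2 (-1.36 ± 0.53, adjusted p = 0.155). Mptx1 was close to the floor, with 1, 13 and 1 counts in TNFdARE, against 17, 23 and 15 counts in WT (-1.90 ± 0.82, adjusted p = 0.175). Pla2g2a, which GENCODE marks as a polymorphic pseudogene, had 8.52, 25.3 and 18.9 CPM in TNFdARE, against 51.8, 34.7 and 51.5 CPM in WT (-1.39 ± 0.40, adjusted p = 0.0877), and its groups did not overlap. Spink4 had the smallest difference, with 189.5, 475 and 365 CPM in TNFdARE, against 554, 556 and 476 CPM in WT (-0.62 ± 0.32, adjusted p = 0.243); TNFdARE replicate 2 and WT replicate 3 nearly met.

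6 further genes carry a Defa symbol in RefSeq but another name in GENCODE, and are not counted among the 45. They are also left out of the alpha defensin sums and shares above. Of these, 4 were tested and 0 passed in edgeR, with 2 at an unadjusted p under 0.05 and 1 called by DESeq2. Gm14851, listed as Defa38 in RefSeq, had 56.6, 459 and 255 CPM in TNFdARE, against 857, 541 and 1019.6 CPM in WT (-1.65 ± 0.72, edgeR adjusted p = 0.185). AY761184, listed as Defa39, had 14.7, 145 and 55.7 CPM in TNFdARE, against 341, 174 and 386 CPM in WT (-2.07 ± 0.80, adjusted p = 0.151). Neither gene overlapped between the groups.

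Other genes known from Paneth cells were examined as a list of 10, all tested, of which 0 rose and 0 fell in edgeR, 4 had an unadjusted p under 0.05 (2 lower and 2 higher), and DESeq2 called 1 higher and 2 lower; their median log2 fold change was -0.61, against -0.002 over all genes. Lyz1, the Paneth cell lysozyme, had 677, 2778 and 1574 CPM in TNFdARE, against 5069, 3613 and 5628 CPM in WT (-1.51 ± 0.51, edgeR adjusted p = 0.114), the same order of libraries as the alpha defensins. Mmp7, chosen for its role in cleaving alpha defensin precursors after its values were seen, had 106, 204 and 221 CPM in TNFdARE, against 309, 202 and 305 CPM in WT (-0.62 ± 0.31, adjusted p = 0.238), with overlap. Nod2, a sensor of bacterial cell walls, and Slc30a2, a zinc transporter, had the higher values in TNFdARE; both were also chosen after their values were seen. Nod2 had 21.6, 5.48 and 12.8 CPM in TNFdARE, against 5.52, 2.24 and 3.25 CPM in WT, with overlap (1.86 ± 0.57, adjusted p = 0.0969). Slc30a2 had 50.4, 51.1 and 60.3 CPM in TNFdARE, against 45.9, 41.3 and 46.4 CPM in WT, without overlap (0.28 ± 0.10, adjusted p = 0.121). The list's summed level ran from 1061 to 3444 CPM in TNFdARE and from 4262 to 6547 CPM in WT, most of it Lyz1. Without Lyz1 the other 9 genes summed to 385, 666 and 592 CPM in TNFdARE, against 856, 649 and 919 CPM in WT, and the groups overlapped.

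Genes that direct the secretory lineage and signals that Paneth cells give to stem cells were read next. Of 15 lineage regulators, 0 rose and 0 fell (2 at an unadjusted p under 0.05, 1 called lower by DESeq2), with a median of -0.11. Xbp1, a factor of the secretory unfolded protein response, was the most abundant. It had 286, 243 and 292 CPM in TNFdARE, against 280.1, 249 and 296 CPM in WT (-0.01 ± 0.11, edgeR adjusted p = 0.964). 10 of the 15 were negative. In 2, Atoh1 and Tcf7l2, every TNFdARE library lay below every WT library, and in 0 above (named after their values were seen). Atoh1 had -0.40 ± 0.14 (edgeR adjusted p = 0.111) and Tcf7l2 had -0.36 ± 0.11 (adjusted p = 0.0811). Of 6 niche signals, 0 rose and 0 fell (1 at an unadjusted p under 0.05, 1 called lower by DESeq2), with a median of -0.35; Tgfa, an epidermal growth factor receptor ligand and the most abundant, had -0.04 ± 0.11 (adjusted p = 0.836). 5 of the 6 were negative, and Dll4, a Notch ligand, and Wnt11, a Wnt ligand, did not overlap between the groups (chosen after their values were seen). Dll4 had 20.3, 28.4 and 23.5 CPM in TNFdARE, against 36.9, 32.7 and 35.4 CPM in WT (-0.54 ± 0.13, adjusted p = 0.0593), and Wnt11 had -0.78 ± 0.34 (adjusted p = 0.183). Of 9 tested relatives of the members, 1 rose and 0 fell in edgeR, although 8 were negative and their median was -0.72. At an unadjusted p under 0.05, 3 of the 9 were lower and 1 higher; DESeq2 and the model of all 12 libraries each called 3 lower and 1 higher, and the replicate block 2 lower and 1 higher. The gene that rose, Pla2g2d, another secreted phospholipase A2, had 60.6, 20.6 and 46.3 CPM in TNFdARE, against 8.65, 3.15 and 6.22 CPM in WT (2.82 ± 0.52, adjusted p = 0.0449). Spink1, the most abundant relative and a trypsin inhibitor, had 32.7, 123 and 72.3 CPM in TNFdARE, against 220.3, 194 and 244 CPM in WT (-1.53 ± 0.46, adjusted p = 0.092). The call of Pla2g2d, like all others named here outside the members, was lost with limma-voom, which called 0 genes, and without any 1 of the WT libraries.

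**Figure D5:**
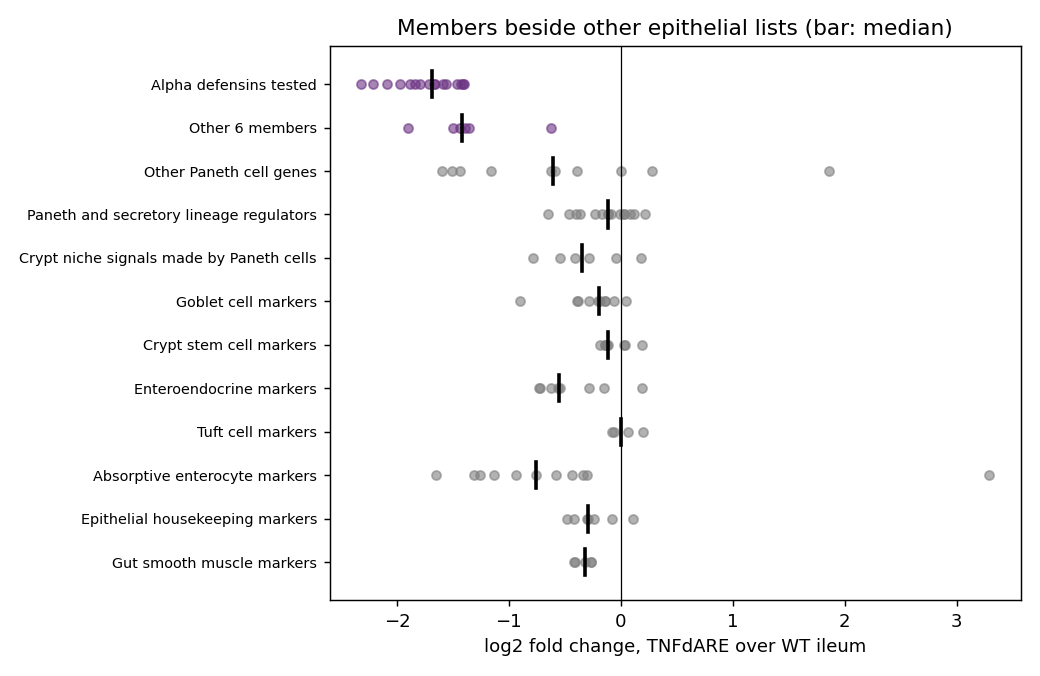
Log2 fold change of TNFdARE over WT ileum for each tested gene (points) of the members and of 10 other lists of epithelial and muscle genes; black bars are medians. The medians are -1.69 for alpha defensins and -1.42 for the 6 other products, against -0.76 for enterocyte, -0.20 for goblet and -0.11 for stem cell markers.

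Markers of the other cell types in whole ileum were read beside the members. Of 10 goblet cell markers, 0 rose and 0 fell in edgeR (2 at an unadjusted p under 0.05, 2 called lower by DESeq2), with a median of -0.20. They summed to 12746 to 21111 CPM in TNFdARE and 20235 to 21299 CPM in WT, and Fcgbp, a mucus protein, had -0.14 ± 0.19 (adjusted p = 0.635). Of 8 stem cell markers, 0 rose and 0 fell, with 0 at an unadjusted p under 0.05 and 0 called by DESeq2; Olfm4, expressed in crypt base stem cells, had 0.04 ± 0.20 (adjusted p = 0.912) and the list a median of -0.11. Of 7 epithelial markers, 0 rose and 0 fell (2 at an unadjusted p under 0.05, 2 called lower by DESeq2), with a median of -0.29, and they summed to 9277 to 11385 CPM in TNFdARE and 11971 to 13170 CPM in WT. Krt8, a keratin, had -0.24 ± 0.13 (adjusted p = 0.253). The goblet, stem and epithelial medians were all closer to 0 than that of any member group. So were those of the other Paneth cell genes (-0.61) and of the enterocyte markers (-0.76). In 18 of 22 members every TNFdARE library lay below every WT library. The same held in 5 of 7 epithelial, 7 of 11 enterocyte, 4 of 8 enteroendocrine and 3 of 10 goblet markers. It held in 4 of 10 other Paneth cell genes, 0 of 8 stem cell markers and 0 of 4 tuft cell markers. The difference between lists was not tested.

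Of 11 absorptive enterocyte markers tested, 0 rose and 1 fell in edgeR (7 at an unadjusted p under 0.05, of which 6 were lower; DESeq2 called 5 lower and 1 higher), with a median of -0.76. The gene that fell was Mttp, which loads lipid onto lipoproteins, with 198, 366 and 277 CPM in TNFdARE, against 587, 583 and 664 CPM in WT (-1.13 ± 0.22, edgeR adjusted p = 0.0447). Anpep, a brush border peptidase, had 2091, 5968 and 3984 CPM in TNFdARE, against 9737, 9062 and 10027 CPM in WT (-1.26 ± 0.36, adjusted p = 0.0802). Sis, chosen after its values were seen, had 94.7, 619 and 223 CPM in TNFdARE, against 812, 1085 and 1039 CPM in WT. Its log2 fold change was -1.65 ± 0.66 (edgeR adjusted p = 0.158), and its groups did not overlap. Of the 11 markers tested, 10 were negative. Apoa4, an apolipoprotein chosen after its values were seen, went the other way, with 516, 26 and 137 CPM in TNFdARE, against 14.5, 23.3 and 31.6 CPM in WT, and its groups overlapped (3.29 ± 1.06, adjusted p = 0.107). The list summed to 6791 to 13661 CPM in TNFdARE and 18228 to 19686 CPM in WT, without overlap. Of 8 enteroendocrine markers, 0 rose and 0 fell (4 at an unadjusted p under 0.05, 2 called lower by DESeq2), with a median of -0.55 and -0.54 ± 0.25 for Chgb, a granule protein. Of 4 tuft cell markers, 0 rose and 0 fell (0 at an unadjusted p under 0.05, 0 called by DESeq2), and Dclk1, a kinase used to mark tuft cells, had 0.20 ± 0.14.

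Of 8 neutrophil and monocyte markers tested, 6 rose and 0 fell in edgeR, with a median of 4.64. All 8 had an unadjusted p under 0.05, DESeq2 called 8 higher and limma-voom 0. The 6 that edgeR called were S100a8, S100a9, Csf3r, Cxcr2, Mmp9 and Lyz2. Lyz2, the lysozyme of myeloid cells, had 3437, 574 and 1786 CPM in TNFdARE, against 128, 92.2 and 92.8 CPM in WT (4.21 ± 0.68, edgeR adjusted p = 0.0404), and its TNFdARE libraries ran in the opposite order to those of Lyz1. The list summed to 841 to 4262 CPM in TNFdARE and 157 to 226 CPM in WT, without overlap. Smooth muscle markers had a median of -0.32 (0 of 5 rose, 0 fell, 1 at an unadjusted p under 0.05, 0 called by DESeq2), and Myh11, a smooth muscle myosin, had -0.42 ± 0.20. The part of these cell types in the level of the members was not tested. Pancreatic acinar markers, which would mark carried-over pancreas, summed to 3.92 to 4.81 CPM in TNFdARE and 3.73 to 5.11 CPM in WT, with 4 of 8 at 0 counts in every ileum library; Cela1, an elastase and the 1 tested, had -0.05 ± 0.22.

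In the synovium, where no Paneth cells reside, the 45 members summed to 14, 17 and 8 counts in TNFdARE, against 54, 19 and 11 counts in WT. 34 of the 45 members had 0 counts in every synovium library. The alpha defensins alone had 8, 13 and 5 counts in TNFdARE, against 24, 4 and 8 counts in WT. These counts are so few that the genotypes were not compared there.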

How the data were processed

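RNA of ileum and ankle synovium was sequenced in 12 libraries, 3 for each genotype and tissue. Per the labels' protocols, 1 µg of total RNA went into TruSeq Stranded mRNA libraries, read as single reads of 100 cycles. The submitters' processing notes list GRCm38 as the build, with Bowtie2 2.3.3.1 and cutadapt 1.15 as tools; neither counting tool nor annotation is named in the sources used here. The table of raw counts deposited by the authors covers 46603 Ensembl genes, 19236 of them at 0 throughout. Their deposited FPKM table covers 17046 genes, holds no 0 and repeats values across libraries, so it served only as an alternative.

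GENCODE M21 gave symbols and positions for 98.9% of the gene identifiers. Ileum counts were filtered with filterByExpr, scaled by TMM and tested with edgeR 4.0.16 in R 4.3.3 (robust quasi-likelihood F test, two-sided, Benjamini-Hochberg over 15462 genes, threshold 0.05). Log2 fold changes are TNFdARE over WT. The edgeR standard errors are the absolute log2 fold change divided by the square root of the F statistic. Tests of 2-fold and 4-fold changes on simulated data of this comparison (15462 genes, 200 changed) recovered 60% and 82%, with 17 false among 159 calls, a share above 0.05. The changed genes were drawn at random from the better counted genes only, and their counts independently of each other. The rates therefore do not give the chance of a call for the members, whose TNFdARE libraries lay far apart. Alternatives were RLE factors, plain library size, no filter, DESeq2 1.42.0, limma-voom 3.58.1, limma on log2(FPKM + 0.1) and log2(FPKM + 1), all 12 libraries, a replicate block and leaving out each library. Same-numbered ileum libraries deviated together (correlations of 0.232, 0.256 and 0.157 over 10465 genes), each over the 0.1 set for pairing. The block is therefore reported as an alternative, and the main fit was made without it. Of the 6 unmatched pairs, TNFdARE 3 with WT 1 reached 0.156 and the others were negative. Deviations from a group mean cancel over its libraries, so these correlations are not independent of the matched ones. The labels do not say what a number marks. Shared sequence was measured as 100-base transcript windows, and promoters came from RefSeq. Totals of 14267834 to 16224402 counts put the floor of 3 counts at 0.185 to 0.21 CPM, for counting error only. Named with values were the 6 other products, the 12 alpha defensin genes of highest mean CPM, and, of other lists, called genes and the most abundant gene. Members and lists were chosen with earlier results of these data known.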

Additional observations from a re-analysis of the deposited data

How the results depend on the processing

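All 22 tested members kept a negative log2 fold change under the 15 alternatives run (330 values, from -4.11 to -0.32), and 14 of these values passed the threshold. The median of the tested alpha defensins ran from -2.52 without TNFdARE replicate 2 to -1.22 without TNFdARE replicate 1, and was -2.01 with the replicate block, which called 852 genes higher, 276 lower and 0 members (lowest member adjusted p 0.105) and changed no call of a member. Members called were 6 with DESeq2 (Pla2g2a, Defa35, Defa28, Defa29, Defa-ps7 and Defa-ps1), 2 with all 12 libraries (Pla2g2a and Defa29) and 0 to 6 when leaving out 1 library, the 6 without TNFdARE replicate 2. Genes called were 637 higher and 242 lower; library size alone gave 1216 higher, DESeq2 1680 higher and 1035 lower, limma-voom 0 and 0, FPKM + 0.1 1 and 0, FPKM + 1 0 and 0, and all 12 libraries 1827 and 895. Leaving out 1 library gave 0 to 2609 genes higher and 0 to 2024 lower: without TNFdARE replicate 3 there were 2 and 0, and without any 1 WT library 0 and 0. The cause was not tested. The summed alpha defensin log2 ratio of -1.50 ran from -2.16 without TNFdARE replicate 2 to -1.03 without TNFdARE replicate 1, and that of the 6 other products from -1.89 to -0.86 around -1.29. Depth limits Mptx1, Defa28 and the tested pseudogenes other than Defa-ps6, which lie near the floor of 3 counts in TNFdARE libraries.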
